A study of Mus musculus with 97 samples.

Results

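The genes described here belong to 8 families of developmental transcription factors, Tbx, Pax, Lhx, Dlx, Irx, Gata, Nkx and the Six-homeobox genes, followed in ribosome-bound RNA of mouse microglia with and without the Polycomb subunit Eed. They were chosen by name alone: a symbol made of the family name and a number, or of Nkx and a pair of numbers, with Tbx15, Gata2 and Lhx1 left out. That gave 68 of the 37991 rows of the expression table, under 65 symbols. The Nkx family held 14 rows, Tbx 12, Pax 9, Lhx 8, Irx 7, the Six-family 7, Dlx 6 and Gata 5. Irx2, Lhx8 and Six3 each had 2 rows, 1 of which was at 0 in all 28 libraries.

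All mice were C57BL/6 and received tamoxifen at 4 to 6 weeks of age. Controls were Cx3cr1CreErt2/+(Litt);Eef1a1LSL.eGFPL10a/+;Eedfl/+, so they carried the inducible Cre recombinase, the GFP-tagged ribosomal protein L10a and 1 floxed Eed allele. Eed-ko mice were Cx3cr1CreErt2/+(Litt);Eef1a1LSL.eGFPL10a/+;Eedfl/fl and differed from them in the second floxed allele. Tagged ribosomes were purified from striatum and cerebellum at 3, 6 and 9 months (translating ribosome affinity purification, TRAP), with 2 libraries for each region, age and genotype, 24 in all. Another 4 libraries hold tissue RNA of control mice at 9 months, 2 from each region. The labels' protocols describe all 4 as the fraction not bound in TRAP, but the column code of the first library of each region reads as input (IN) and that of the second as unbound (UB), so the 2 may be different fractions, and every comparison with tissue RNA carries that doubt. The Cx3cr1 promoter drives the Cre in microglia and in other macrophages, so the tag does not separate them. The labels do not say that the 2 libraries of a group came from separate animals, so p-values measure the spread between these libraries only. At 6 and 9 months the same sample codes recur in the column names of both genotypes of a region. Separate runs, which the labels do not name, could not be told apart from genotype there.

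Eed belongs to the core of Polycomb repressive complex 2 (PRC2), which trimethylates lysine 27 of histone H3 and keeps genes of other lineages and stages silent. Genes for developmental transcription factors, whose promoters are often rich in CpG dinucleotides, are among the classical targets of the complex. In the embryo these proteins assign regional and cell identities: T-box factors in mesoderm and heart, Pax and Six-family factors in sense organs, kidney and muscle, Dlx, Lhx and Nkx factors in forebrain neurons, Irx factors in patterning, and Gata factors in heart, gut and blood. In the adult brain several of them stay on in particular neurons, such as Dlx5, Dlx6 and Lhx6 in forebrain GABAergic neurons and Pax6 in cerebellar granule cells.

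Levels are given as RPKM, a read density scaled to gene length and library depth, which can be compared between genes. The number of recovered reads was 21.7 to 187 M (megareads) in TRAP and 21.5 to 59.5 M in tissue RNA. The summed RPKM of 17 markers of homeostatic microglia (such as P2ry12 and Tmem119) was 7101 to 8698 in striatal control TRAP and 2447 to 5226 in cerebellar control TRAP, against 80.8 to 150 and 29.2 to 62.3 in tissue RNA. RNA of other cells was present too: 11 markers of striatal neurons summed to 354 to 577 in striatal control TRAP, and 12 markers of cerebellar neurons to 1120 to 1901 in cerebellar control TRAP. In such bulk libraries fewer cells of a type and less RNA per cell cannot be told apart. The level of Eed over the whole gene was 21.7 ± 5.80 RPKM (SD, n = 6) in striatal controls and 26.1 ± 6.80 in striatal Eed-ko libraries, and 20.5 ± 2.40 and 28.1 ± 2.18 in cerebellum. Which exons are floxed is not given in the sources used here, so this level does not check the genotype labels.

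Most members were barely detected. In control TRAP libraries between 4 and 8 of the 68 rows reached 1 RPKM, while 31 to 34.8% of all genes with values did in the 28 libraries. Of the 68 rows, 6 were at 0 in all 24 TRAP libraries, among them Gata5 (a cardiac and gut factor), Nkx2-6 and Nkx1-1, and 12 were under 3 reads in each of them. The most abundant member of its family over all TRAP libraries was Dlx5, Six4, Pax6, Nkx2-2, Lhx6, Irx5, Tbx20 or Gata4. In tissue RNA it was Dlx5, Six4, Pax6, Nkx2-2, Lhx6, Irx1, Tbx18 or Gata3.

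At 9 months more members reached 1 RPKM in Eed-ko than in control TRAP. In striatum the number was 4 and 6 in the 2 controls and 13 and 12 in the 2 Eed-ko libraries, and in cerebellum 5 and 6 against 8 and 11. The groups did not overlap in either region at that age. The share of all genes at 1 RPKM was also higher in Eed-ko there, with 31.5 and 31.0% in striatal controls against 32.6 and 32.0%, and 31.8 and 32.1% in cerebellar controls against 33.2 and 33.0%. At 6 months the striatal numbers were 5 and 6 in controls and 7 and 8 in Eed-ko, and the cerebellar ones, 8 and 6 against 5 and 8, overlapped. The striatal shares of all genes at 6 months overlapped, at 32.5 and 33.6% in controls and 33.0 and 33.1% in Eed-ko. At 3 months the groups overlapped in striatum (6 and 6 against 6 and 5) and in cerebellum (6 and 4 against 5 and 8). These counts follow the threshold and were not tested.

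**Figure D1:**
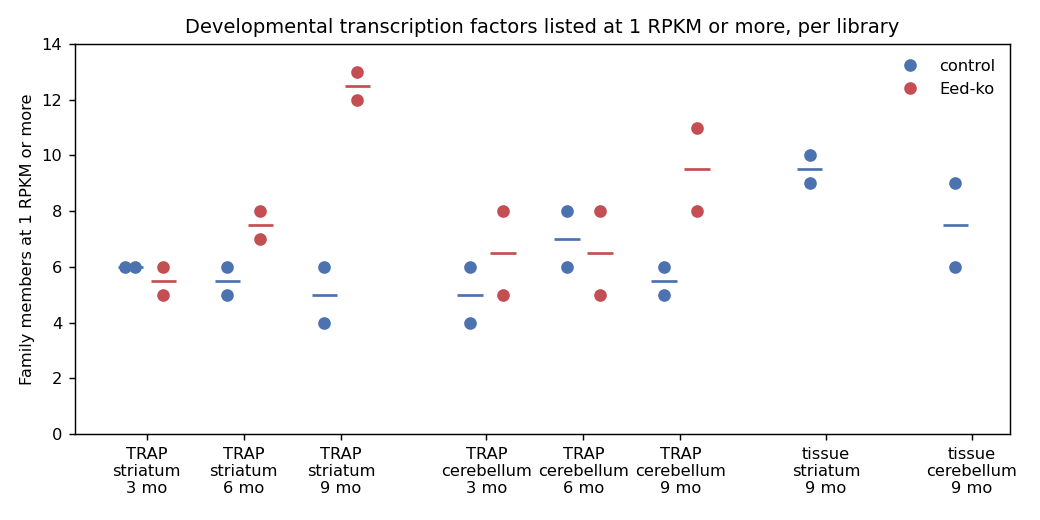
Number of members at 1 RPKM or more (vertical axis) in each library, by region and age in months (horizontal axis). Each dot is 1 library, blue for control and red for Eed-ko, and each bar is the mean of its group; the striatal Eed-ko libraries of 9 months stand at 13 and 12, above the 4 and 6 of their controls.

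Summed by family, the striatal difference at 9 months was spread over several families. The Six-family genes summed to 0.785 and 0.925 RPKM in the 2 controls as lower and higher value, and to 3.91 and 7.28 RPKM in Eed-ko. The Tbx genes summed to 0.109 and 0.822 RPKM against 2.97 and 6.61 RPKM, and the Pax genes to 0.0485 and 0.168 RPKM against 1.29 and 2.37 RPKM. The Gata genes were at 0 in both controls and at 0.863 and 1.98 RPKM in Eed-ko. The Irx genes stood at 0.00924 and 0.109 RPKM against 1.23 and 1.77 RPKM, and the Nkx genes at 1.33 and 3.69 RPKM against 5.06 and 6.18 RPKM. For Lhx (3.46 and 5.80 against 4.58 and 6.51 RPKM) and Dlx (8.21 and 12.5 against 10.4 and 20.1 RPKM), the families most abundant in control striatum, the groups overlapped. These sums are descriptions and were not tested.

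A member entered the test if 2 or more of the 24 TRAP libraries held it at 1 RPKM or above. The test was limma on log2(RPKM + 1), and p-values were adjusted by Benjamini-Hochberg across the 16090 genes that met the same filter. These were 23 members, among them Dlx1, Dlx3, Dlx4, Dlx5, Dlx6, Gata4, Irx1, Irx5, Lhx2, Lhx5, Lhx6, Lhx9, Nkx2-1, Nkx2-2, Nkx2-9, Nkx6-2, Pax2, Pax3, Pax6, Six4, Six5 and Tbx20. Of them 6 (such as Dlx4, Gata4, Lhx9, Pax3 and Tbx20) reached that level in Eed-ko libraries alone. They had to reach higher levels there in the region concerned, so summaries over the 23 support nothing. In another region the direction was free, and Dlx4 lay below both striatal controls at 9 months. Dlx3 reached it in cerebellar control libraries alone and had to lie lower in cerebellar Eed-ko. Fold changes on this scale understate those of low genes.

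Averaged over the 3 ages, none of the 23 members passed an adjusted p of 0.05 for Eed-ko against control in either region, where 0.106% of all genes did in striatum and 0.373% in cerebellum (limma). At an unadjusted p below 0.05 there were 4 members in striatum and 5 in cerebellum, against 12.3% and 14.8% of all genes, and limma voom on recovered reads called 0 in both. The median log2 difference of the members was 0.14 in striatum (0.02 over all genes) and 0.09 in cerebellum (-0.01 over all genes). The lowest p in striatum belonged to Tbx20, a cardiac T-box factor (log2 difference 0.81 ± 0.23 SE, adjusted p = 0.167), and Lhx6, which specifies cortical and striatal interneurons (0.61 ± 0.18, adjusted p = 0.196). In cerebellum it belonged to Lhx9 (0.70 ± 0.18, adjusted p = 0.0915), Lhx5, a LIM factor of Purkinje cell development (0.70 ± 0.20, adjusted p = 0.112), and Dlx3, a factor of skin and tooth development (lower in Eed-ko, adjusted p = 0.153). Not 1 member kept all 6 Eed-ko libraries of a region above or below all 6 controls, where 0.068% of genes did upward and 0.127% downward in striatum, and 0.124% and 0.102% in cerebellum.

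The difference of the Eed effect between regions passed for 0 members and 0 genes (limma, 5 members and 8.58% of genes at an unadjusted p below 0.05; voom called 0). Its change with age passed for 0 members in striatum (0.0559% of genes) and 0 in cerebellum (0.0373% of genes), and voom called 0 in both. At an unadjusted p below 0.05 the change with age held 2 members in striatum, Tbx20 among them, and Irx5 in cerebellum, with 7.06% and 7.45% of all genes. At 3 months alone 0 members passed in striatum (0.0124% of genes) or cerebellum (0.0249%), and at an unadjusted p below 0.05 there were 0 in striatum (1.6% of genes) and 1 in cerebellum, Pax3 (5.31%). At 6 months 0 members passed in striatum (0.0249%) or cerebellum (0.118%), with 1 in striatum, Lhx6, at an unadjusted p below 0.05 (8.41% of genes) and 0 in cerebellum (12.7%). Voom called 0 members in all 4.

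At 9 months in striatum 1 of the 23 members rose, Tbx20 (ENSMUSG00000031965), where 0.553% of all genes passed and 0.447% passed upward. At an unadjusted p below 0.05 there were 6 members, with 16.6% of all genes. The striatal levels of Tbx20 in the 2 libraries of each age were 0.175 and 0, 0 and 0, and 0.125 and 0 RPKM in controls, and 0.00669 and 0.18, 0 and 1.23, and 1.43 and 5.02 RPKM in Eed-ko. Both 9-month Eed-ko libraries lay above all 6 controls, as did 1 library of 6 months and, by 0.18 against 0.175 RPKM, 1 of 3 months. Tbx20 reached 1 RPKM in Eed-ko libraries alone and entered the test through them, so it had to lie higher there. The log2 difference at 9 months was 1.85 ± 0.39 (SE, limma adjusted p = 0.0417), on 240 and 2637 recovered reads against 18 and 0. The call held in 13 of 31 alternative fits, with adjusted p from 0.0123 to 0.157. Without the second Eed-ko library, which held the higher value, the difference was 1.20 and the adjusted p 0.110, the lone library being assumed to vary like the others, and without the first the adjusted p was 0.0123. The call was also lost without either striatal control of 9 months (adjusted p = 0.142 and 0.157) or 6 months (0.0629 and 0.0639), and without any 1 of the 8 libraries of 3 months (0.0540 to 0.0611). With no filter on low values 4 members passed, Pax9, Six2 and Tbx20 among them (0.398% of genes), and with voom on recovered reads 3 did, Gata4 and Irx5 among them (1.22% of genes).

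The Six-family genes are homeodomain partners of Pax and Eya proteins in muscle, kidney and sensory development. Six2 (ENSMUSG00000024134), a factor of nephron progenitors, was at 0 in both 9-month controls and at 0.641 and 1.69 RPKM in Eed-ko, at least 14.6-fold above the level of 3 reads in a control library, and did not reach the filter of the test. Six4 (ENSMUSG00000034460) stood at 0.535 and 0.106 RPKM against 1.66 and 1.55 RPKM (1.00 ± 0.42, adjusted p = 0.241). Both Eed-ko values were above all 6 striatal controls, the highest of which was 0.638 RPKM. Six5 was at 0.383 and 0.679 RPKM in controls and 0.507 and 2.96 RPKM in Eed-ko, so its groups overlapped.

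Gata4 (ENSMUSG00000021944), a zinc finger factor of heart and gut, was at 0 in all 6 striatal controls and at 1.33 and 0.75 RPKM in the 9-month Eed-ko libraries, on 195 and 343 reads. That is at least 31.4-fold above the floor of 3 reads, with a log2 difference of 1.02 ± 0.32 and an adjusted p of 0.124 (limma). Irx5 (ENSMUSG00000031737), an Iroquois factor of heart and retina, was at 0 in both controls and at 1.11 and 1.73 RPKM in Eed-ko, at least 28.7-fold above the floor (1.27 ± 0.35, adjusted p = 0.0899). Irx5 also had reads in younger striatal Eed-ko libraries, at 0.125 and 0.499 RPKM at 3 months and 0 and 0.345 RPKM at 6 months. Pax9 (ENSMUSG00000001497), a factor of pharyngeal pouches and teeth, was untested and stood at 0.00616 and 0.0082 RPKM in controls and 0.831 and 0.957 RPKM in Eed-ko. Its younger striatal Eed-ko libraries were at 0.00595 RPKM or lower.

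The Nkx members above the controls differed widely between the 2 Eed-ko libraries. Nkx2-3 (ENSMUSG00000044220), a factor of gut and spleen vessels, was at 0 in all 12 control TRAP libraries and at 1.69 and 0.227 RPKM in the striatal Eed-ko pair of 9 months. Nkx6-1 (ENSMUSG00000035187), a factor of ventral neural tube and beta cells, was at 0.00924 and 0 RPKM in controls and at 0.342 and 4.84 RPKM in Eed-ko. Lhx6 was expressed in every striatal library: 1.24 and 1.79 RPKM in the 9-month controls against 4.00 and 2.20 RPKM in Eed-ko (0.68, adjusted p = 0.289), and 1.75 and 1.60 against 3.27 and 6.92 RPKM at 6 months. Dlx2, the neighbour of Dlx1, was untested, with 3.00 RPKM in the first and 0.0479 RPKM in the second Eed-ko library against 0.218 and 0.116 RPKM in controls, so its groups overlapped.

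Counting also the untested members, 18 of the 62 that were above 0 in any TRAP library lay above both controls in both striatal Eed-ko libraries of 9 months, 29% of them where 13.4% of all genes did. Among them were Gata3, Gata4, Gata6, Irx3, Irx5, Lhx6, Nkx2-3, Nkx6-1, Pax1, Pax3, Pax6, Pax9, Six2, Six4, Tbx5, Tbx18 and Tbx20. Many did so at a low level, and for those at 0 in both controls the lower Eed-ko library can lie close to the level that 3 reads have in a control: 1.01 times that level for Irx3, 1.37 for Pax1, 1.43 for Tbx5, 2.11 for Gata6 and 2.20 for Gata3. The 2 Eed-ko libraries held, for example, Pax1 at 0.0775 and 0.0286 RPKM, Gata6 at 0.0754 and 0.0616 RPKM, and Pax3 at 0.00433 and 0.695 RPKM. Dlx4 and Nkx2-2 lay below both controls, 3.23% of the members beside 11.8% of genes. A gene at 0 in either control cannot lie below both, and many members were at 0. The downward shares, here and at the other ages and in cerebellum, therefore follow in part from low level. Shares of all genes were not matched for level, so upward and downward shares of the members cannot be set against each other. Taken alone, the first Eed-ko library held 32 members above both controls (51.6%, beside 25.3% of genes) and the second 21 (33.9%, beside 24.2% of genes).

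The younger striata did not show this number. At 3 months 10 of the 62 members lay above both controls (16.1%, beside 10.2% of genes) and 2 below (3.23%, beside 9.6%). At 6 months 7 lay above (11.3%, beside 12.4% of genes) and 4 below (6.45%, beside 14%). In cerebellum 5 lay above at 3 months (8.06%, beside 11.1% of genes) and 9 below (14.5%, beside 16.7%). At 6 months 6 lay above there (9.68%, beside 11.3% of genes) and 4 below (6.45%, beside 12.1%). Whether these shares differ between ages was not tested.

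In cerebellum at 9 months 0 of the 23 members passed (limma, 0.342% of genes), while 6 had an unadjusted p below 0.05 (11.5% of genes) and voom called 1, Six5 (0.982% of genes). Lhx9 (ENSMUSG00000019230), a LIM factor of gonad and limb, had the lowest p: its 9-month levels were 0.00678 and 0.114 RPKM in controls and 2.24 and 1.36 RPKM in Eed-ko (1.39 ± 0.32, adjusted p = 0.0829). The younger cerebellar Eed-ko libraries stood at 0.094 and 1.29 RPKM at 3 months and 0.0296 and 0.366 RPKM at 6 months, against at most 0.246 RPKM in the 6 controls. Lhx9 rested on 340 and 1736 reads against 1 and 83. Six5 was at 0.0154 and 0 RPKM in controls and 0.462 and 2.74 RPKM in Eed-ko (1.21, adjusted p = 0.311), and Lhx5 at 0.259 and 0.209 against 1.98 and 0.845 RPKM (0.93, adjusted p = 0.310). Both groups stood apart at this age, but a cerebellar control of 6 months held 1.31 RPKM of Six5, and a control of the same age 1.13 RPKM of Lhx5. Dlx3 went the other way in the cerebellar average: its control levels were 2.06 and 0.507, 5.56 and 0.105, and 2.57 and 0.537 RPKM at the 3 ages, and its Eed-ko levels 0.158 and 0.141, 0.804 and 0.166, and 0 and 0.0487 RPKM. The controls themselves spread from 0.105 to 5.56 RPKM, and the 6 Eed-ko values overlapped their lower end. Dlx3 entered the test through control libraries alone, so it had to lie lower in Eed-ko.

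Above both controls in both cerebellar Eed-ko libraries of 9 months lay 18 of 62 members (29%, beside 11.2% of genes), among them Dlx4, Gata3, Gata6, Irx5, Lhx2, Lhx5, Lhx6, Lhx9, Nkx2-2, Nkx2-9, Pax7, Pax9, Six2, Six5, Tbx2, Tbx5 and Tbx20. The lower Eed-ko value of Gata6, 0.0352 RPKM, was below the level of 3 reads in the first control, 0.0434 RPKM, and that of Pax7 was 1.12 times its own such level. Lhx6 rested on 1 read in each Eed-ko library against 0 in both controls, and Gata3 on 3 and 192 reads against 0 and 1. Below both lay 4 (6.45%, beside 7.67% of genes): Dlx3, Irx6, Nkx6-2 and Tbx1. The 9 members on the upward list of both regions included Gata3, Gata6, Irx5, Lhx6, Pax9, Six2, Tbx5 and Tbx20, and made up 50% of each list. Over all genes 950 were on both lists, 21.9% of the striatal and 26.2% of the cerebellar one. Each member list held 29% of the members, while the lists of all genes held 13.4% and 11.2%. A longer list shares more by itself, so these overlaps cannot be compared directly, and their difference was not tested. The labels do not say whether the striatal and cerebellar libraries of an age came from the same animals.

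In cerebellum Tbx20, Pax9 and Six2 had lower Eed-ko levels at 9 months than in striatum. Tbx20 was at 0.419 and 0.696 RPKM in the 9-month Eed-ko libraries and at 0 in both controls, at least 13.6-fold above the floor of 3 reads (log2 difference 0.63 ± 0.39, limma adjusted p = 0.595). Pax9 was at 0.239 and 0.245 RPKM against 0 and 0.00368 RPKM, and Six2 at 0.316 and 0.252 RPKM against 0 and 0.0175 RPKM. Tbx5, a limb and heart factor, was at 0.25 and 0.143 RPKM against 0 in both controls, at least 4.06-fold above the floor. Irx5 had comparable Eed-ko levels in both regions, 1.19 and 1.27 RPKM in cerebellum, over cerebellar controls of 0.173 and 0.244 RPKM. Six2 was also seen at 0.376 RPKM in a cerebellar Eed-ko library of 3 months, and Irx5 at up to 2.56 RPKM in younger cerebellar controls. Tbx20 was at 0.448 RPKM in a cerebellar Eed-ko library of 6 months, and Tbx5 at 0.165 RPKM in a cerebellar control of 3 months.

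**Figure D2:**
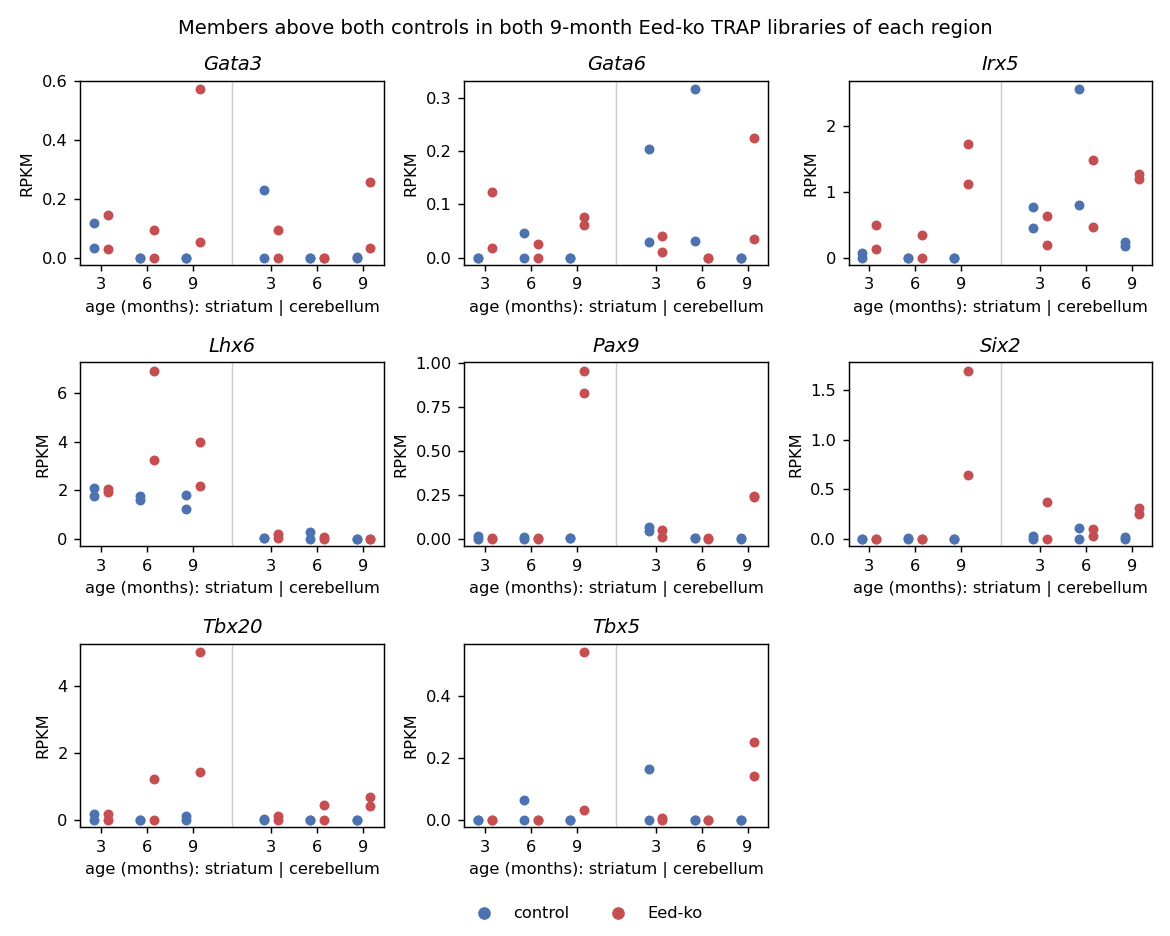
RPKM (vertical axis, linear, from 0, its own scale in each panel) of 8 of the members that lay above both controls in both 9-month Eed-ko libraries of each region, by age in months (horizontal axis, striatum left and cerebellum right of the grey line). Each dot is 1 library, blue for control and red for Eed-ko; Tbx20 reaches 1.43 and 5.02 RPKM in striatal Eed-ko at 9 months and Pax9 0.831 and 0.957 RPKM.

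RNA of other cells also differed in these libraries. In the 2 striatal controls and the 2 Eed-ko libraries of 9 months, in that order, 10 markers of mural cells and fibroblasts summed to 4.24, 4.11, 19.6 and 12.3 RPKM, and 8 endothelial markers to 2.75, 2.70, 13.8 and 6.57 RPKM. Markers of choroid plexus and ependyma, 7 in number, summed to 6.97, 6.34, 342 and 7.64 RPKM, and those of striatal neurons to 360, 465, 802 and 443 RPKM. Oligodendrocyte markers summed to 170, 171, 292 and 193 RPKM, and astrocyte markers to 98.2, 92.9, 144 and 115 RPKM. Cldn5 and Lum were at 0 in both controls, and Lum in both Eed-ko libraries as well. The sums of homeostatic microglia were 7785, 7453, 5190 and 6081 RPKM. The part of these cells in the striatal values of 9 months was not tested as such. Tissue RNA of striatum, with mural and fibroblast sums of 22.5 and 22.2 RPKM, held Tbx20 at 0.0181 and 0 RPKM, Gata4 at 0 in both libraries, Six2 at 0.0128 and 0 RPKM and Pax9 at 0.0161 and 0 RPKM. Of the members named as above both striatal controls, Gata3, Gata4, Gata6, Irx3, Lhx6, Nkx2-3, Pax1 and Six4 were higher in the first Eed-ko library, with the choroid plexus sum of 342 RPKM. Irx5, Nkx6-1, Pax3, Pax6, Pax9, Six2, Tbx5, Tbx18 and Tbx20 were higher in the second, where it was 7.64 RPKM. In cerebellum at 9 months the mural and fibroblast sums overlapped, at 8.75 and 28.8 RPKM in controls and 26.4 and 16.6 RPKM in Eed-ko. Oligodendrocyte sums did not overlap there, at 170 and 185 RPKM in controls and 219 and 213 RPKM in Eed-ko, nor did those of striatal neuron markers (54.3 and 58.7 against 74.5 and 66.9 RPKM). Mast cell and basophil sums lay lower in Eed-ko (14.4 and 19.9 against 13.8 and 13.8 RPKM). Cerebellar tissue RNA held 41.9 and 23.9 RPKM of that list with Fcer1a, Mcpt4 and Tpsb2 at 0, so the sum need not come from mast cells. The part of other cells in the cerebellar values, such as those of Lhx2, Lhx6 and Nkx2-2, was not tested.

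Several members lie close together in the mouse genome. Within 500 kb of each other RefSeq places 11 groups that hold 25 members, such as Six3 and Six2, Nkx2-1, Nkx2-9 and Pax9, Irx5 and Irx6, Tbx3 and Tbx5, Dlx1 and Dlx2, and Dlx5 and Dlx6. Some neighbours differed in striatum at 9 months. Pax9 lay above both controls while Nkx2-1 (0.044 and 2.82 against 1.42 and 0.80 RPKM) overlapped. Irx6 was at 0 in both Eed-ko libraries beside Irx5, and the Six3 row with reads was at 0 and 0.0264 RPKM beside Six2. The 3 genes most like Tbx20 in log2(RPKM + 1) over the 24 TRAP libraries were Hoxc6 (Pearson r 0.90), Hoxc8 (0.88) and Gm16150 (0.86). The points share their libraries and depth, and the correlations are descriptions.

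A property the choice by name did not use is the base composition upstream of the start site, where PRC2 is known to act at CpG-rich promoters. RefSeq (GRCm38.p6) gave a window for 46 of the 65 symbols, and the 250 bases before the start were read on the gene's strand. With CpG-rich defined as over 50% G and C and a CpG ratio (observed over expected from base content) above 0.6, 26 of the 46 members were CpG-rich (56.5%), against 31.2% of all 27025 windows. The median number of CG dinucleotides was 14 against 6. Among members above both 9-month controls in both regions it was 4 of 5 windows (80%), among those above in either region 12 of 18 (66.7%), and among the other members with reads 12 of 26 (46.2%). The 4 include Lhx6, which had 1 read in each cerebellar Eed-ko library of 9 months. They also include Gata3, with 3 and 192 reads there against 0 and 1 in the controls. The lists were taken from these same libraries and the windows are few, so these shares support nothing about Eed. Shown are Tbx20 (chr9:24774304-24774553, minus strand), which passed the test, and Six2 (chr17:85688255-85688504, minus strand) and Pax9 (chr12:56695221-56695470, plus strand), which lay near 0 in 9-month controls and higher in both 9-month Eed-ko pairs. Dlx1 (chr2:71529195-71529444, plus strand) and Pax6 (chr2:105668646-105668895, plus strand) are shown as members with a regional level in controls. CG dinucleotides are in capitals, all other bases in lower case.
Tbx20: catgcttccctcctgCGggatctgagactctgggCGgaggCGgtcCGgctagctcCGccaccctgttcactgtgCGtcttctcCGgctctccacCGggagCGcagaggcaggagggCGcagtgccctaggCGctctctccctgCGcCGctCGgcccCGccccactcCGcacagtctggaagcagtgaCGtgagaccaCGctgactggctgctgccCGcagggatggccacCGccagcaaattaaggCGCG
Six2: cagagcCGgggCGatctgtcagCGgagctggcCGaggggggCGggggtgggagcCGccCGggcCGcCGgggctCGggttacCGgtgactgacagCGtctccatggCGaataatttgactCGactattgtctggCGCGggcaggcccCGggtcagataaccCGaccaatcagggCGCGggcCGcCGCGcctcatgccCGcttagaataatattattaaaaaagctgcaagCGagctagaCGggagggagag
Pax9: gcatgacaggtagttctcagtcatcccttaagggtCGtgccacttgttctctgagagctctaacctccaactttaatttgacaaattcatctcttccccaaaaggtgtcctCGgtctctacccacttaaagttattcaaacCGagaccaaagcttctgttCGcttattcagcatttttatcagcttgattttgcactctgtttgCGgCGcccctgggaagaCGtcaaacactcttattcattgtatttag
Dlx1: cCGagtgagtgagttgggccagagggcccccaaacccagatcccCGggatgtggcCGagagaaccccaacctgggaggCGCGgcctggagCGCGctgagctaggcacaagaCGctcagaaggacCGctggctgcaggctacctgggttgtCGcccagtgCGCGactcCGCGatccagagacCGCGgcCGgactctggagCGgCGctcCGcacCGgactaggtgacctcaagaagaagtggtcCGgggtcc
Pax6: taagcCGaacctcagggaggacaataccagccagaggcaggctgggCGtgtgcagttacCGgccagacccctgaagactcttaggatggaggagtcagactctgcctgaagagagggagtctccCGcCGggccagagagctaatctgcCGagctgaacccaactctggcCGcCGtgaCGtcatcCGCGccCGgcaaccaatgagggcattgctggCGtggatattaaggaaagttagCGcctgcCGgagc

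Tbx20 has 22 CG in the 250 bases, Six2 26, Dlx1 22 and Pax6 15, with 68.8%, 64.8%, 68.0% and 60.8% G and C. Pax9 has 7 at 43.6% G and C, the 1 of the 5 shown that was not CpG-rich. Dlx1 was at 2.59 and 1.28 RPKM in the striatal Eed-ko libraries of 9 months, within the range of the 6 striatal controls (1.00 to 3.34 RPKM). It was at 0 and 0.0149 RPKM in the cerebellar Eed-ko libraries of that age. The 5 genes were picked by their levels, and whether CG content goes with the Eed effect was not tested. A count of CG in this window is a description of sequence and says nothing of binding.

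Region separated more members than Eed did. Of the 23 members, 14 differed between cerebellar and striatal control TRAP (limma, 37.1% of all genes passed): 6 were lower in cerebellum (17.9% of genes) and 8 higher (19.2% of genes). All 6 lower ones reached 1 RPKM in striatal TRAP alone, and 4 of the higher ones (Dlx3, Irx1, Pax2 and Pax6) in cerebellar TRAP alone. These entered the test through the region where they are high, so the counts support nothing about the families. Dlx5 (ENSMUSG00000029755) had 4.52, 8.25 and 11.6 RPKM as lowest, median and highest of the 6 striatal controls and 0, 0 and 0.322 RPKM in cerebellum (log2 difference -3.00 ± 0.22, adjusted p = 7.53e-09). Lhx2, a LIM factor of forebrain progenitors, had 1.46, 2.13 and 3.22 RPKM against 0, 0.00795 and 0.142 RPKM (-1.61 ± 0.16). Dlx1 had 1.00, 1.99 and 3.34 RPKM against 0, 0 and 0.0742 RPKM (-1.57 ± 0.19). None of these groups overlapped.

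Dlx6, the neighbour of Dlx5, had 0.708, 1.49 and 6.66 RPKM against 0, 0.00861 and 0.0643 RPKM (-1.49 ± 0.22), and Lhx6 had 1.24, 1.76 and 2.11 RPKM against 0, 0.0196 and 0.284 RPKM (-1.35 ± 0.18). Nkx2-1, which patterns the ventral telencephalon and thyroid, had 0.044, 1.11 and 2.82 RPKM against 0.0489, 0.201 and 0.486 RPKM (-0.86 ± 0.26), and its groups overlapped. Untested Dlx2 was at 0.116 to 0.509 RPKM in striatal controls and at 0 in all 6 cerebellar ones.

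Six4 was among the 8 members higher in cerebellum. Its levels were 0.106, 0.413 and 0.638 RPKM in striatum and 1.92, 6.14 and 13.2 RPKM in cerebellum (2.30 ± 0.24, limma adjusted p = 7.22e-07). Pax6 (ENSMUSG00000027168) had 0.0424, 0.127 and 0.223 RPKM against 2.64, 3.82 and 4.16 RPKM (2.05 ± 0.17, adjusted p = 2.7e-08). Pax2, a midbrain and hindbrain factor that marks cerebellar interneuron precursors, had 0, 0 and 0.00923 RPKM against 0.278, 1.87 and 3.85 RPKM. Dlx3 differed in direction from Dlx1, Dlx5 and Dlx6, with 0, 0 and 0.019 RPKM in striatum and 0.105, 1.30 and 5.56 RPKM in cerebellum (1.25 ± 0.33). Its neighbour Dlx4 did not pass.

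Nkx2-2, a factor of oligodendrocyte differentiation, had 0.205, 0.665 and 0.812 RPKM in striatal and 1.40, 1.59 and 4.46 RPKM in cerebellar controls (0.89 ± 0.20). Irx5 (0.75 ± 0.20) and Irx1 (0.74 ± 0.22), Iroquois genes of different clusters, reached at most 0.0654 and 0.109 RPKM in striatal controls and had medians of 0.605 and 0.626 RPKM in cerebellar ones. Nkx2-9 had medians of 0.0694 and 0.522 RPKM, overlapping groups and an adjusted p of 0.0484 that held in 11 of 34 alternative fits. Nkx2-1 passed in 32 of 34, and the other 12 in each alternative run, with no change of direction. All 6 cerebellar controls lay above all 6 striatal ones for 8 of the 62 members (12.9%, beside 4.87% of genes) and below for 6 (9.68%, beside 4.1%).

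**Figure D3:**
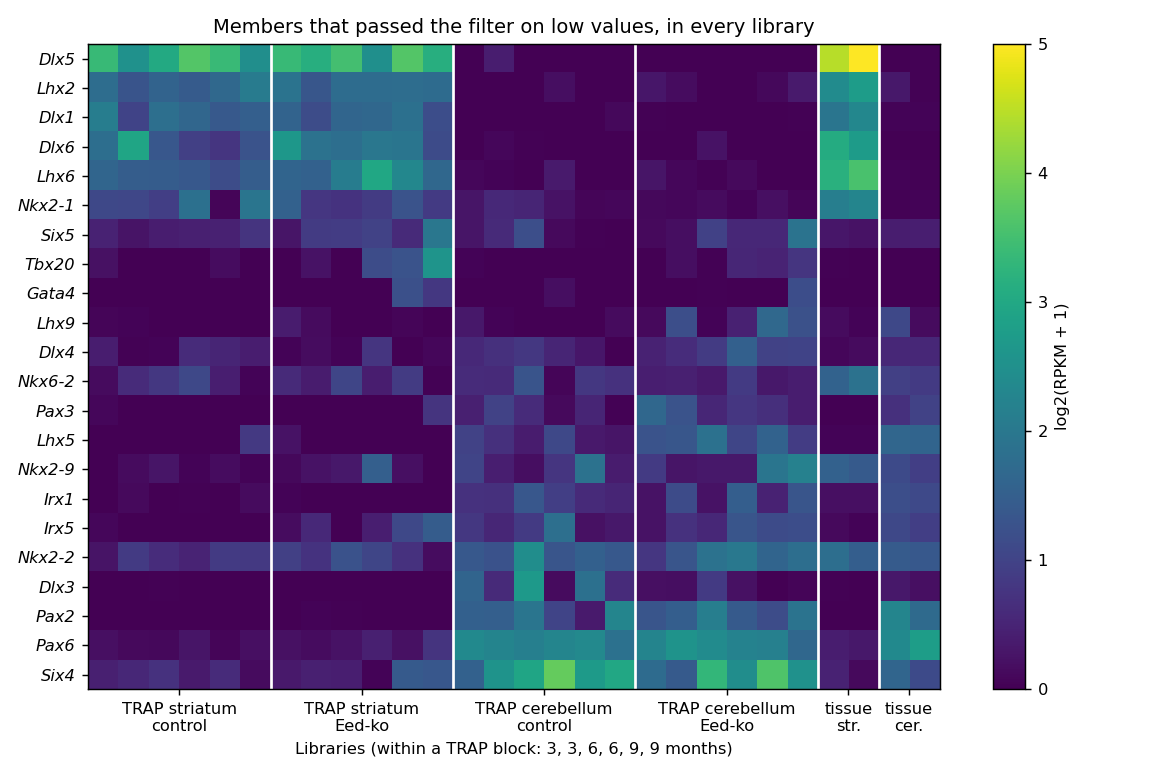
Level of 22 of the members that passed the filter (rows) in all 28 libraries (columns, grouped by kind, region and genotype, and ordered 3, 3, 6, 6, 9, 9 months within each TRAP block), as log2(RPKM + 1) from dark (0) to yellow (5). Dlx5, Lhx2, Dlx1, Dlx6 and Lhx6 fill the striatal columns, and Six4, Pax6, Pax2 and Nkx2-2 the cerebellar ones; Tbx20 and Gata4 appear in the last Eed-ko columns of striatum.

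The regional order of the members in tissue RNA was set beside that in control TRAP. Of the 14 members tested in the fit of 8 libraries (limma, 4 residual degrees of freedom), 11 differed between cerebellum and striatum, where 15.7% of 14186 genes did. Of the 14, 7 reached 1 RPKM in striatal libraries alone and 5 in cerebellar ones alone, and so had to differ. Dlx5 had 21.2 and 30.6 RPKM in striatal tissue and 0.0136 and 0.0236 RPKM in cerebellar tissue (-4.70 ± 0.35, adjusted p = 0.000101), and Lhx6 had 8.03 and 10.8 against 0.0319 and 0.0173 RPKM (-3.34 ± 0.25). Dlx6 (-2.90), Lhx2 (-2.42), Nkx2-1 (-2.16) and Dlx1 (-2.09) were lower in cerebellum too. Pax6 (2.22), Pax2 (2.00), Lhx5 (1.58), Six4 (1.08) and Irx1 (0.94) were higher. Across the 14 members the sign was the same in control TRAP and in tissue RNA for 11. The filter drew on both kinds of library and let most members in through 1 region, which favours the same sign. The agreement therefore supports nothing about the families. It differed for Nkx2-2 (0.89 in TRAP, -0.24 in tissue), Nkx2-9 (0.66 and -0.46) and Nkx6-2 (0.16 and -0.82), 3 Nkx genes that did not pass in tissue. Without any 1 of the 4 tissue libraries, 6 members passed in tissue in place of 11.

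**Figure D4:**
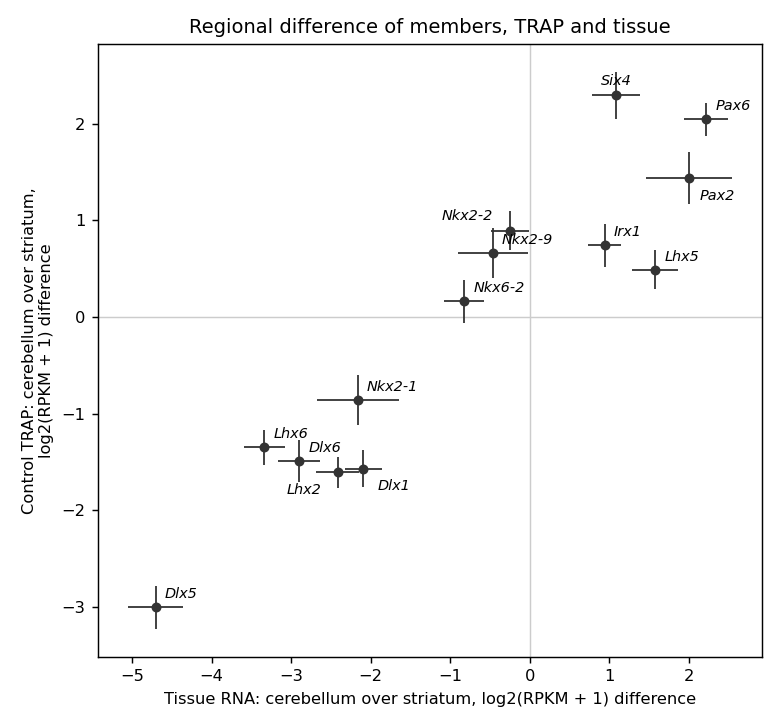
Log2(RPKM + 1) difference of cerebellum over striatum in control TRAP (vertical axis) against that in tissue RNA at 9 months (horizontal axis) for the 14 members in both fits, with lines of 1 SE each way. Dlx5 lies at -4.70 in tissue and -3.00 in TRAP, Pax6 at 2.22 and 2.05, and Nkx2-2, Nkx2-9 and Nkx6-2 lie at the upper left, where the signs differ.

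In striatum the members that passed were lower in TRAP than in tissue RNA. In 9-month controls 7 of the 14 were lower in striatal TRAP than in tissue RNA and 0 were higher (limma, 45.3% of genes passed, 25.9% as lower). Irx1, Lhx5 and Nkx6-2 reached 1 RPKM in tissue libraries alone and entered this test through them. The lower ones were Lhx6 (-2.05 ± 0.25), Dlx6 (-1.88 ± 0.26), Dlx5 (-1.80 ± 0.35), Nkx6-2, an oligodendrocyte factor (-1.49 ± 0.25), Nkx2-9 (-1.38 ± 0.44), Nkx2-2 (-0.81 ± 0.24) and Dlx1 (-0.68 ± 0.24, adjusted p = 0.0477). In the same libraries the 11 markers of striatal neurons summed to 360 and 465 RPKM in TRAP and to 2140 and 2103 RPKM in tissue. Over the 6 controls of each region the sums were 354 to 577 RPKM in striatal and 54.3 to 63.6 RPKM in cerebellar TRAP, in the same order as the levels of Dlx5, Dlx6, Dlx1 and Lhx6. The part of neuronal RNA in the levels of these members was not tested. The call of Dlx1 was kept in 3 of 15 alternative fits, that of Nkx2-2 in 5 of 14 and that of Nkx2-9 in 7 of 14. The count fell to 3 without either striatal tissue library and to 4 without either cerebellar tissue library, the lone library being assumed to vary like the others.

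Six4 stood out in cerebellum. Its level was 5.58 and 7.03 RPKM in cerebellar control TRAP of 9 months and 2.09 and 1.19 RPKM in cerebellar tissue, and it was higher in TRAP (1.48 ± 0.30, limma adjusted p = 0.00958), 1 of 2 members that passed there, where 27.5% of genes did. The other was Lhx5, which entered the test through tissue RNA alone and was lower in TRAP (-1.33 ± 0.29, adjusted p = 0.0128), with 0.259 and 0.209 RPKM against 2.12 and 2.06 RPKM in tissue. In striatum Six4 was at 0.535 and 0.106 RPKM in TRAP and 0.393 and 0.086 RPKM in tissue (0.08 ± 0.30, adjusted p = 0.846). Without the second cerebellar tissue library Six4 did not pass (1.23, adjusted p = 0.0815) and 0 members did, without the first 1 did, and without the second cerebellar control TRAP library 4 did. Among the cerebellar TRAP libraries Six4 ranged from 1.67 to 13.2 RPKM, with overlapping genotypes at each age.

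Partners of these families were read from fixed lists. Of the Eya and Dach cofactors of Pax and Six-family proteins 5 were tested, and 0 passed for Eed in either region over the ages or at 9 months (limma; at most 1 at an unadjusted p below 0.05 in any of these 4 comparisons, and voom called 0). In controls Eya2 was higher (0.90 ± 0.22) and Eya4 lower (-1.36 ± 0.22) in cerebellum. Of a list of 9 LIM cofactors (Ldb, Ssbp and Lmo genes), Lmo2, a partner in blood cell complexes, was lower in cerebellar Eed-ko over the ages (-0.80 ± 0.16, limma adjusted p = 0.0419). Voom called 0 of the 9 in that comparison. Lmo3, a neuronal LIM-only protein, rose in cerebellar Eed-ko at 9 months (1.92 ± 0.29, limma adjusted p = 0.0132). Beside Lmo2, the 17 homeostatic microglia markers had a median difference of -0.55 in the same comparison, with 13 at an unadjusted p below 0.05 and 0 called by limma or voom; their part in its level was not tested. Between regions 5 of the 9 were lower in cerebellum, with Lmo3 at -4.08 and Ldb2 at -2.99. Of the GATA partners Zfpm1 and Zfpm2, neither passed for Eed or had an unadjusted p below 0.05, with voom calling 0, and Zfpm2 was higher in cerebellum (2.46 ± 0.22).

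Of 11 PRC2 genes, 0 passed for Eed in either region over the ages or at 9 months, Eed included (0.44 ± 0.13 in cerebellum, limma adjusted p = 0.123). Between 1 and 3 of them had an unadjusted p below 0.05 in each of these 4 comparisons, and voom called 0. Between regions Jarid2 (1.84), Ezh2 (1.04) and Suz12 (0.33) were higher in cerebellum and Rbbp4 (-0.47) lower. Of 19 PRC1 genes 0 passed for Eed (limma, 2 to 6 at an unadjusted p below 0.05, and 0 by voom), and 4 were higher and 2 lower in cerebellum, led by Cbx2 (1.85) and Rnf2 (-0.76). Both H3K27 demethylases, Kdm6a (1.51) and Kdm6b (1.85), were higher in cerebellum, and neither passed for Eed or had an unadjusted p below 0.05 (limma; voom called 0).

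Other developmental transcription factors outside the 8 families, 53 tested of 113 in the table, gave 3 that rose in striatal Eed-ko at 9 months: Mab21l2 (3.42 ± 0.50), Otx2, which specifies choroid plexus and midbrain (2.09 ± 0.43), and Zic1, a cerebellar granule cell factor (1.54 ± 0.27). Of all genes 0.447% passed upward there (limma). Voom called 4 of the list there, and 1.22% of all genes. Over the ages Zic1 (0.92 ± 0.16, limma adjusted p = 0.0374) and Mab21l2 (1.56 ± 0.29, adjusted p = 0.0498) rose in striatum and 0 passed in cerebellum, where 7 had an unadjusted p below 0.05, while voom called 0 in both regions. The choroid plexus sums beside Otx2 were those given above, 342 RPKM in the first Eed-ko library. The median difference of the list at 9 months was 0.38, against 0.01 over all genes. These genes met the same filter as the members, which lets low genes in through Eed-ko libraries alone. The median and the number of calls therefore support nothing about the list. In cerebellum at 9 months 1 fell, Neurog2 (-1.52 ± 0.32, limma adjusted p = 0.0494). Between regions 22 were higher and 14 lower in cerebellum, with Zic1 (5.89) and En2 (4.39) far above the members described here.

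Members that did not reach 1 RPKM in 2 TRAP libraries entered no test. Of the striatal Eed-ko libraries the highest means among them belonged to Dlx2, Nkx6-1, Six2, Nkx2-3 and Pax9, described above, and of the cerebellar ones to Tbx18, Six2, Irx3, Tbx3 and Tbx2. Tbx18, a factor of mural cells and epicardium, ranged from 0 to 1.36 RPKM in cerebellar controls and from 0 to 0.554 RPKM in cerebellar Eed-ko, and reached 0.866 RPKM in the second striatal Eed-ko library of 9 months. Tbx3 had its highest level, 0.988 RPKM, in a striatal control of 3 months, and Tbx2 had 0.45 RPKM in the first striatal Eed-ko library of 9 months and 0 in the second. Irx3 stayed at or below 0.116 RPKM in striatum and 0.415 RPKM in cerebellum. Single libraries gave the peaks of others: Pax4 1.49 RPKM and Tbx1 0.848 RPKM in a cerebellar control of 9 months, Nkx1-2 0.712 RPKM in a striatal Eed-ko library of 6 months, Tbx6 0.681 RPKM in one of 3 months, and Tbx19 0.553 RPKM in a striatal control of 3 months. Tbx21, the T-box factor of T helper cells, stayed at or below 0.09 RPKM, and Gata1, the erythroid factor, at or below 0.0253 RPKM, in all libraries. Pax5 reached 0.447 RPKM, Tbx4 0.421 RPKM and Lhx4 0.416 RPKM, each in 1 library. Tbx10, Tbx22, Pax8, Lhx3, Irx4, Nkx2-4, Nkx2-5, Nkx3-2 and Nkx6-3 stayed lower still, at 0.189 RPKM or less in every library. Dlx1, Dlx6 and Nkx2-2 have antisense transcripts, and the counting is not stated to use strand, so reads of the 2 strands cannot be told apart there.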

How the data were processed

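The members and the gene lists were chosen with earlier results of these data known. The authors deposited 1 table of RPKM values per gene and library, whose columns name the 28 RNA libraries; the other 69 of the 97 samples have no values in it and are not analysed here. Per the labels' protocols, cDNA was made with the Nugen Ovation V2 kit, libraries with the TruSeq DNA kit, and sequencing was single read on a NextSeq 500. Per the submitters' processing notes, bcl2fastq, TopHat2 2.1.0, HTSeq 0.6.0, DESeq2 and the genome build mm9 were used; the annotation and the strand setting are not given in the sources used here.

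Of the 37991 rows, 181 have no values. Whole reads were recovered from the steps of the deposited RPKM for all 32861 genes above 0 (within 0.0001 of a whole read, 100% of genes), which gives the depths; the reads of a low gene may be short by a common divisor. The main test was limma 3.58.1 in R 4.3.3 with an intensity trend on log2(RPKM + 1), with no scaling between libraries, for genes that reached 1 RPKM in 2 or more libraries of the fit, two-sided, with Benjamini-Hochberg adjustment and a threshold of 0.05. One fit held the 24 TRAP libraries with 1 mean per region, age and genotype (16090 genes, 12 residual degrees of freedom), and one the 8 control libraries of 9 months (14186 genes, 4 residual degrees of freedom). The scripts were tested on simulated data. A fold "at least" compares the lower Eed-ko library with the level that 3 reads have in the control with the higher such level, per library, and covers counting error only.

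Members were named where they passed a test, led their family in TRAP or tissue RNA, were among the 5 highest untested ones in Eed-ko libraries, or neighboured a member that passed, and list genes by their smallest adjusted p, up to 4 a list. Some members that enter the counts are not reported here. Further members at 9 months were chosen after their values were seen. Alternatives were another pseudocount, filter, scaling, weighting, voom on recovered reads, a replicate block, the libraries of a comparison alone, and leaving out each library.

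The correlation of the deviations of same-numbered libraries was -0.0488 to 0.14 between control and Eed-ko. Between regions, by the library numbers in the names, all 6 were positive, at 0.032 to 0.177, and 3 exceeded 0.1. Since not every pair did, no block entered the main fit. At 3 months the lane-like codes in the column names pair Eed-ko and control libraries across replicate numbers. The correlation between genotypes and the replicate block do not follow those codes. Promoter windows came from a RefSeq table of GRCm38.p6 and were matched by symbol; no coordinate was converted from mm9. Tables and figures were made with pandas 2.3.3, numpy 2.4.6 and matplotlib 3.10.9.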

Additional observations from a re-analysis of the deposited data

Results flagged for a closer look

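Of 92 groups of 6 libraries over the 23 members, 4 were flagged. In each, the distance of 1 library to the nearest other exceeded Dixon's critical value on log2(RPKM + 1). Groups at lower levels exceeded it too and were not flagged, such as Lhx5 in striatal controls, with 0.771 RPKM in 1 library and 0 in the others. The 4 are therefore no measure of how often outliers occur. Gata4 was at 1.27 RPKM in the second cerebellar Eed-ko library of 9 months, while the other 5 lay between 0 and 0.0206 RPKM. Nkx2-9 was at 1.85 RPKM in the second striatal Eed-ko library of 6 months, with the others between 0 and 0.253 RPKM. Nkx2-2 was at 4.46 RPKM in the first cerebellar control of 6 months, with the others between 1.40 and 1.88 RPKM. Lhx2 was low in the second striatal Eed-ko library of 3 months, at 1.54 RPKM, with the others between 2.38 and 2.77 RPKM.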

How the results depend on the processing

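The number of members that passed depended on the processing where few did. For Eed in striatum over the ages (0) it was 2 with no filter and 1 at 9 months alone. In cerebellum (0) it was 1 (Lhx5) after rescaling each library to 1248 TRAP-enriched genes, which moved the median Eed effect of all genes to 0.174 in striatum and 0.284 in cerebellum and the median region difference to 0.38, and 0 to 1 when leaving out each library. The 1 was Lhx9 without the first cerebellar Eed-ko library of 3 months (0.88) or the second of 9 months (0.78). It was Dlx3, which entered the test through controls alone, without the second cerebellar control of 6 months (-1.42). The difference between regions (0) gave 1 with no filter, and the change with age 2 in striatum and 1 in cerebellum.

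For striatum at 9 months (1) it was 0 with a pseudocount of 0.1, array weights, rescaling, the comparison's libraries alone or a filter of 2 RPKM, which removes Tbx20 from the test, 4 with no filter, 3 with voom, and 0 to 2 when leaving out each library. For cerebellum at 9 months (0) it was 1 with no filter or voom and 0 to 1 when leaving out each library, the 1 being Lhx9 without either cerebellar Eed-ko library of 3 months or the second of 9 months. TRAP against tissue gave 3 in striatum (7) with a filter of 2 RPKM and 3 to 8 when leaving out each library, and in cerebellum (2) 0 with a pseudocount of 0.1, 4 with no filter, 1 with voom and 0 to 4 when leaving out each library. The tissue region difference (11) ranged from 6 to 12, and the region difference of control TRAP (14) from 12 to 15. The 18 members above both 9-month controls became 20 to 32 in striatum and 20 to 30 in cerebellum with 1 library left out, a comparison of fewer libraries chosen after seeing the data. Leaving out a library can only keep or raise such a count, so these values are no check of it. The Eed difference between regions of Lhx6, -0.61, was 0.39 with voom. Except where an alternative tested fewer or more genes or libraries, the cause was not tested.

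The replicate number as a block gave 13 members for region, 5 for TRAP against tissue in striatum, 2 in cerebellum, 9 for the tissue region difference and 0 for Eed; a block by library number gave 14 for region. The counts over all genes moved as well: for Eed in cerebellum 60 became 4 with array weights, 0 with the comparison's libraries, 108 with no filter, 5 with voom and 388 after rescaling, and in striatum at 9 months 89 became 197 with voom and 48 after rescaling. With 2 libraries a group, and members mostly under 1 RPKM, differences of a few reads are not detectable at this depth.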
